A study of Mus musculus with 6 samples.

Results

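The 9 mRNAs described here encode the Aurora kinases, polo-like kinase 1 and their closest partners: *Aurka*, *Aurkb*, *Aurkc*, *Incenp*, *Birc5*, *Cdca8*, *Tpx2*, *Plk1* and *Bora*. They were taken by gene symbol from a table of 25899 genes. Of the 9, 8 were listed under these symbols, and *Bora* was listed as 6720463M24Rik, which RefSeq gives as its older symbol. All 9 had a mean FPKM (fragments scaled by exon length and by the mapped reads of the library) above 1 in a fraction and were among the 10578 genes tested.

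The libraries came from oocytes of aged CD1 females (AF, 58 weeks by the labels; the study's methods name the strain ICR) injected with 5 IU of pregnant mare serum gonadotropin. Oocytes were released from IBMX, cultured for 180 minutes and collected after nuclear envelope breakdown (NEBD), and all of them were given cycloheximide, which holds ribosomes on mRNA. Lysates of 200 oocytes were separated on sucrose gradients and the fractions combined as non-polysomal (NP, free and monosome-bound RNA) or polysomal (P), with 3 libraries of each. No treatment or genotype differed between NP and P, no young females are analysed here, and the number of females behind each sample is not given in the sources used here, so p-values measure the spread between these samples. Every library was amplified before sequencing.

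Aurora A works at spindle poles, where Tpx2 binds and activates it, and with Bora it activates Plk1 at entry into M phase. Aurora B and its germ-cell relative Aurora C are the catalytic subunits of the chromosomal passenger complex, in which Incenp is the scaffold and Birc5 (survivin) and Cdca8 (borealin) direct the complex to chromosomes. In oocytes these proteins serve spindle assembly without centrioles and the correction of wrong chromosome attachments. Fully grown oocytes do not transcribe, so such proteins are made from stored mRNA.

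The depth recovered from the steps between low FPKM values was 1237799, 18096676 and 12131030 reads in NP replicates 1, 2 and 3, and 163822, 1141531 and 1549317 reads in P replicates 1, 2 and 3. P replicate 1 was thus the shallowest. Between 56.9% and 63.2% of low values per library came out as whole reads within 0.02, so these depths are estimates, and limits drawn from them cover counting error only. All 12 oocyte markers examined were listed above 0 in at least 1 library of each fraction, with *Zp3* between 589 and 4157 FPKM. *Figla* was low, at 1.06, 1.38 and 1.52 FPKM in NP and at 0, 3.46 and 0 FPKM in P. Of 12 granulosa and cumulus markers, 7 were at 0 in every library, including *Foxl2*, *Amh* and *Fshr*, and the list summed to between 11.2 and 131 FPKM in NP and between 1.18 and 16.5 in P. In NP most of that sum was *Cyp19a1* (104 FPKM in NP replicate 3), and its part in the values below was not tested. Of 6 blood and endothelial markers in the table, 4 were at 0 in every library, and the list summed to between 21.8 and 27.8 FPKM in NP and between 0 and 11.3 in P. Nearly all of this was *Pecam1*, at 27.1, 21.8 and 23.8 FPKM in NP and at 11.3, 4.67 and 0 FPKM in P, so its fractions did not overlap, and its part in the values below was not tested.

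*Plk1*, *Aurkc* and *Aurka* were among the abundant mRNAs of every library, while the passenger subunits, *Tpx2* and *Bora* were more than an order of magnitude lower than *Plk1* in NP, and *Aurkb* had the lowest mean in both fractions and was the lowest of the 9 in NP replicates 2 and 3 and P replicate 1. FPKM is per exon length, so levels of different genes can be set side by side within a library. *Plk1* exceeded 98.1% to 99.7% of the genes tested in the 6 libraries. *Aurkc* exceeded 96.5% to 98.9%, and *Aurka* 93.2% to 98.8%. The other 6 mRNAs lay between the bottom and 91.0%.

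**Figure D1:**
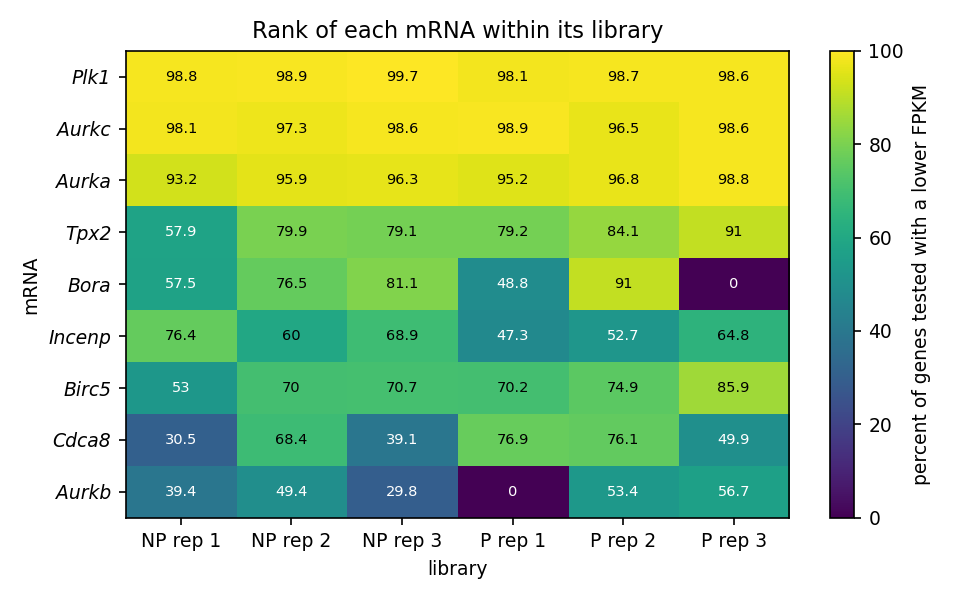
Percent of the 10578 genes tested that had a lower FPKM than each mRNA (rows) in each library (columns). *Plk1*, *Aurkc* and *Aurka* exceeded at least 93.2% of genes in all 6 libraries, whereas *Bora* was at 0 in P replicate 3 and *Aurkb* at 0 in P replicate 1.

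*Plk1*, the kinase of M phase entry, spindle poles and kinetochores (chromosome 7, 122159437 to 122169875, plus strand, GRCm38), stood at 682, 756 and 2085 FPKM in NP replicates 1, 2 and 3 and at 266, 225 and 436 FPKM in the P replicates. All P values lay below all NP values, with means of 309 ± 112 against 1175 ± 789 FPKM (SD, n = 3 each). The log2 ratio of P over NP on the log2(FPKM + 1) scale was -1.78 (SE 0.61, 95% interval -3.05 to -0.51). It did not pass the threshold of 0.1 (adjusted p = 0.166, limma, Benjamini-Hochberg). With the replicate numbers as a block the adjusted p was 0.0905, which does pass. That *Plk1* was lower in P in 3 of 3 same-numbered pairs follows from the lack of overlap, whatever the pairing, and adds nothing to it.

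This direction has to be read against the whole table. The median log2 ratio over the 10578 genes was -1.03, and FPKM values summed to less in the P libraries (246200 to 393900) than in the NP libraries (597300 to 633100). FPKM are relative to the mapped reads of each library, so the amount of RNA in a fraction was not measured, and the cause of the lower sums in P was not tested. Relative to the median, the ratio of *Plk1* was -0.75, with an interval of -2.02 to 0.52. Without NP replicate 3, its highest library, the ratio of *Plk1* relative to the median was 0.07. Of all genes tested, 1.82% passed the threshold in either direction, and 6.31% did so with the block. None of the 9 mRNAs passed without the block (adjusted p from 0.166 to 0.967, limma), and 1 (*Plk1*) passed with the block. At an unadjusted p under 0.05 (limma, no block) was 1 of the 9 (*Plk1*), beside 1669 of all 10578 genes. No gene taken alone could reach p below 0.1 by exact permutation of 3 and 3 libraries.

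*Incenp*, the scaffold that binds Aurora B or C (chromosome 19, 9872297 to 9899533, minus strand), stood at 40.4, 17.2 and 15.6 FPKM in NP and at 1.90, 5.17 and 5.02 FPKM in P. Here too the fractions did not overlap, and the mean was 6.07-fold higher in NP (24.4 ± 13.9 against 4.03 ± 1.85 FPKM, SD, n = 3 each). The log2 ratio was -2.29 (SE 1.15, interval -4.67 to 0.09, adjusted p = 0.335, limma, Benjamini-Hochberg). Relative to the median of all genes it was -1.26. *Plk1* and *Incenp* were the 2 of the 9 mRNAs whose fractions did not overlap, both lower in P, beside 23.2% of all genes tested, so this count is near the background. The P replicate 1 value of *Incenp* corresponds to between 1 and 2 reads at the exon length used.

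**Figure D2:**
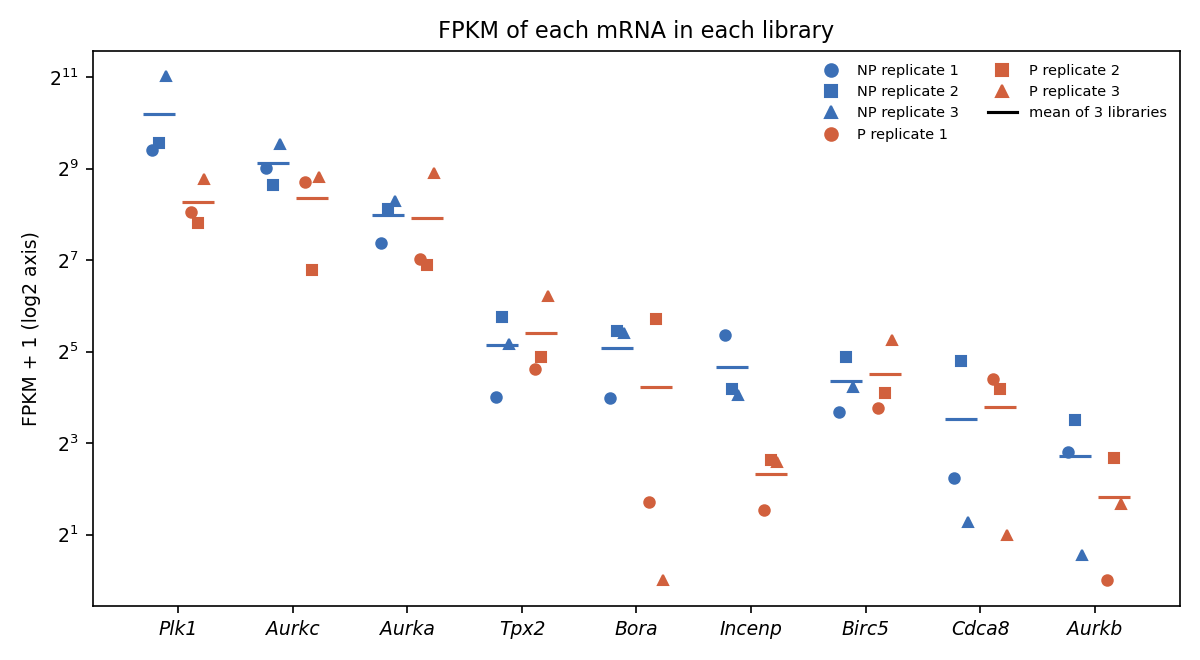
FPKM + 1 on a log2 axis for each of the 9 mRNAs in each library, NP in blue and P in orange, with replicate numbers as symbols and bars at the mean of 3 libraries. The P values of *Plk1* (225 to 436 FPKM) and *Incenp* (1.90 to 5.17 FPKM) lie below all their NP values, and the other 7 mRNAs overlap between fractions.

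The remaining passenger subunits did not share that pattern. *Birc5*, survivin (chromosome 11, 117849251 to 117855743, plus strand), stood at 11.9, 28.7 and 17.8 FPKM in NP and at 12.6, 16.2 and 37.2 FPKM in P, so the fractions overlapped. Its log2 ratio was 0.10 (SE 1.05, interval -2.08 to 2.28, adjusted p = 0.967, limma). *Cdca8*, borealin (chromosome 4, 124918465 to 124939311, minus strand), stood at 3.75, 26.6 and 1.42 FPKM in NP and at 20.04, 17.3 and 0.997 FPKM in P. It was low in replicate 3 of both fractions, where the value rests on 89 reads in NP and 8 in P, and high in both only in replicate 2. The log2 ratio of *Cdca8* was 0.43 (SE 1.33, interval -2.33 to 3.18, adjusted p = 0.885, limma). On the opposite strand, 9930104L06Rik shares 232 exon bases with *Cdca8*, and without a stated strand setting reads of the overlap cannot be told apart. In NP replicate 3 that gene was at 5.54 FPKM, above *Cdca8* at 1.42, and in NP replicate 1 it was at 2.60 FPKM against 3.75, while in the other 4 libraries it was at 0.47 FPKM or less.

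Within a library, scaling plays no part in the ratio of 2 mRNAs. *Incenp* over *Cdca8* was 10.8, 0.649 and 11.0 in the NP replicates and 0.0947, 0.30 and 5.03 in the P replicates. *Incenp* was thus the higher of the pair in 3 of 6 libraries, in replicates 1 and 3 of NP and replicate 3 of P. *Birc5* over *Cdca8* ranged from 0.627 to 37.3 and was above 1 in 4 of 6 libraries. Neither ratio was stable from library to library.

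The Aurora kinases differed widely in level. *Aurkc*, the germ-cell paralogue (chromosome 7, 6995443 to 7002945, plus strand), stood at 516, 401 and 747 FPKM in NP and at 419, 110 and 451 FPKM in P. *Aurka* (chromosome 2, 172356190 to 172370535, minus strand) stood at 165, 278 and 313 FPKM in NP and at 130, 118 and 479 FPKM in P. *Aurkb* (chromosome 11, 69045647 to 69051664, plus strand) stood at 6.03, 10.3 and 0.476 FPKM in NP, was listed at 0 in P replicate 1, and was at 5.35 and 2.19 FPKM in P replicates 2 and 3. *Aurkc* exceeded *Aurkb* in 6 of 6 libraries, by 38.8-fold to 1570-fold in NP and by 20.5-fold and 206-fold in P replicates 2 and 3. In P replicate 1, where 3 reads of *Aurkb* would be worth 6.22 FPKM, it was at least 67.3-fold higher. The *Aurkb* values rest on 22, 551 and 17 reads in NP and on 0, 18 and 10 reads in P, so its exact level is uncertain at this depth, but it was at most 2.30% of the summed Aurora FPKM.

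**Figure D3:**
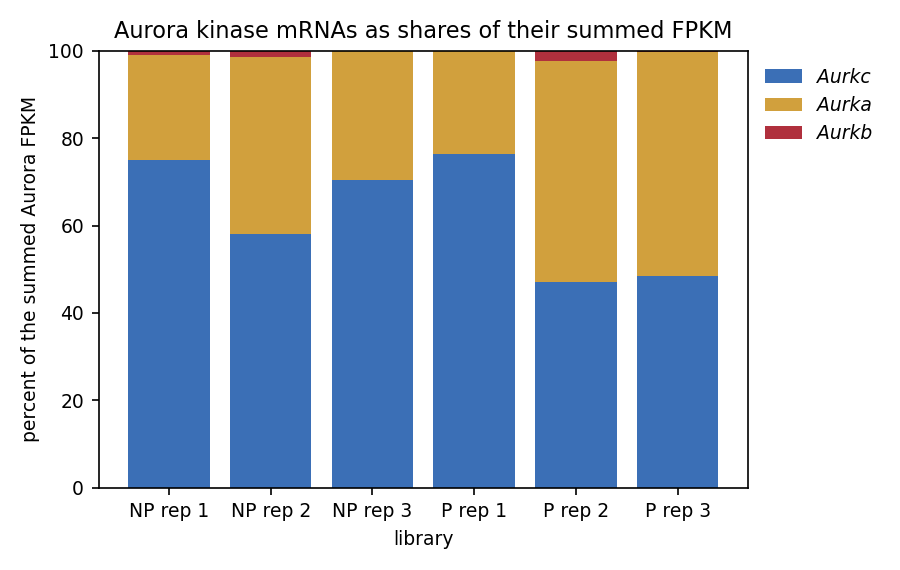
Stacked bars of *Aurkc*, *Aurka* and *Aurkb* as percent of their summed FPKM in each library. *Aurkc* made up 58.1% to 75.1% in NP and 47.2% to 76.3% in P, and *Aurkb* at most 2.30%.

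*Aurkc* was the larger share of Aurora FPKM in all 3 NP libraries and in P replicate 1, while *Aurka* was slightly ahead in P replicates 2 and 3 (*Aurkc* over *Aurka* 0.934 and 0.943). On the log2 scale *Aurkc* over *Aurka* averaged 1.14 ± 0.57 in NP and 0.50 ± 1.02 in P (SD, n = 3 each), and the values of the fractions overlapped (0.53 to 1.64 in NP and -0.10 to 1.68 in P). Between fractions, the log2 ratio of P over NP was -0.96 for *Aurkc* (SE 0.67, interval -2.36 to 0.43, adjusted p = 0.465, limma). For *Aurka* it was -0.32 (SE 0.74, interval -1.85 to 1.21, adjusted p = 0.836, limma). For *Aurkb* it was -0.85 (SE 1.24, interval -3.42 to 1.73, adjusted p = 0.728, limma). Relative to the median of all genes these are 0.07, 0.71 and 0.19, and under quantile normalization the ratios themselves turn positive (0.06, 0.67 and 0.48), as do those of *Aurkc* (0.04) and *Aurka* (0.67) under median-of-ratios scaling.

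Since Aurora paralogues are alike in sequence, their coding sequences were compared to see how far reads could be assigned to each. *Aurkb* and *Aurkc* aligned over 802 bases at 75.2% identity, and the longest run of identical bases was 25. The stretch around that run, shown because it holds the longest identical run, is given in GENCODE M21 transcripts (GRCm38, coding strand) with the 8 bases of 60 that differ in capitals. For *Aurkb* it is bases 549 to 608 of the coding sequence, at chr11:69048641-69048786 over 2 exons, and for *Aurkc* bases 468 to 527, at chr7:6997649-7000034 over 2 exons.
Aurkb: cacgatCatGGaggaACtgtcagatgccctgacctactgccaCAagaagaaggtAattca
Aurkc: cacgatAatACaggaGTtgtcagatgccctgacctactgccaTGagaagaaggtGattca
*Aurka* shared runs of at most 20 bases with *Aurkb* and 12 with *Aurkc*.

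The closer sequences lie elsewhere. In GENCODE M21, 10 pseudogenes aligned to the *Aurkc* transcript over 515 to 1069 bases at 93.2% to 99.2% identity, 9 of them on chromosome 7 and the closest, *Gm12463*, on chromosome 4. *Plk1* has a processed pseudogene, *Plk-ps1*, at 93.4% identity over 1815 bases, and an overlapping unclassified gene on the opposite strand, *Gm44985*. *Birc5* has 1 pseudogene alignment of 205 bases at 92.7%. The other 6 mRNAs had no such copy at 90% identity over 100 bases. None of these copies was analysed here, and how reads matching several places were counted is not given in the sources used here, so part of the FPKM of *Aurkc*, *Plk1* and *Birc5* may belong to such copies, or part of their reads may be missing.

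*Tpx2*, which activates Aurora A and nucleates spindle microtubules (chromosome 2, 152847964 to 152895321, plus strand), stood at 15.0, 53.4 and 34.9 FPKM in NP and at 23.5, 28.7 and 73.0 FPKM in P. The fractions overlapped, with means of 34.4 ± 19.2 and 41.7 ± 27.2 FPKM (SD, n = 3 each) and a log2 ratio of 0.26 (SE 0.99, interval -1.78 to 2.30, adjusted p = 0.907, limma). *Tpx2* was lower than its partner *Aurka* in 6 of 6 libraries, at 0.0911, 0.192 and 0.112 of the *Aurka* FPKM in NP and 0.180, 0.244 and 0.153 in P. Across the 6 libraries *Tpx2* and *Birc5* had the highest correlation of the 36 pairs of these mRNAs (Pearson's r of log2(FPKM + 1) = 0.971), and *Aurka* correlated with *Birc5* at 0.828 and with *Tpx2* at 0.793. These points share libraries, depth and scaling, and n is 6, so the values are descriptive.

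*Bora*, the cofactor with which Aurora A activates Plk1 (chromosome 14, 99046427 to 99074537, plus strand), stood at 14.8, 42.6 and 41.7 FPKM in NP and at 2.28, 51.1 and 0 FPKM in P. In P it was thus high in a single library, replicate 2, which held 95.7% of the summed P FPKM and exceeded every NP value. The P replicate 1 value of *Bora* corresponds to about 1.93 reads at the exon length used, and 3 reads would be worth 3.55 FPKM there. The log2 ratio was -2.47 (SE 1.32, interval -5.21 to 0.26, adjusted p = 0.358, limma, Benjamini-Hochberg). Without P replicate 2 the ratio was -4.09 and without P replicate 3 it was -1.24, so its size is set by which of these libraries is kept. *Bora* was below *Plk1* in every library, at 0.0217, 0.0563 and 0.02 of its FPKM in NP and at 0.00859, 0.227 and 0 in P.

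**Figure D4:**
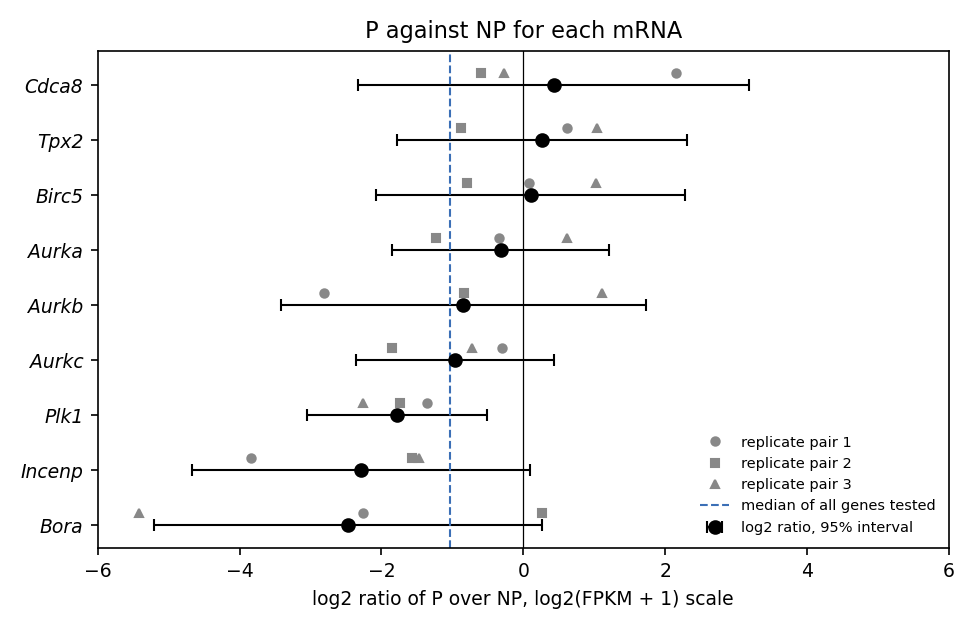
Log2 ratio of P over NP (log2(FPKM + 1) scale, black points with 95% intervals from limma) for each mRNA, with the ratio of each same-numbered pair as grey symbols and the median of all 10578 genes, -1.03, as a dashed line. Each of the 9 intervals contains the dashed line, and the interval of *Plk1* (-3.05 to -0.51) alone leaves out 0.

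Of the 9 mRNAs, 6 had a ratio below 0 and 3 (*Birc5*, *Cdca8* and *Tpx2*) above, beside 80.1% of all genes below 0. Each of these 3 fell below 0 with some single library left out (lowest -0.34, -0.32 and -0.23). *Aurka* rose above 0 (0.039) without P replicate 2. Against the median of all genes, 6 of the 9 lay above it and 3 (*Plk1*, *Incenp* and *Bora*) below it. No interval of the 9 excluded the median of all genes. Standard errors ran from 0.61 for *Plk1* to 1.33 for *Cdca8*. The order of mean levels was *Plk1*, *Aurkc*, *Aurka*, *Tpx2*, *Bora*, *Incenp*, *Birc5*, *Cdca8*, *Aurkb* in NP and *Aurkc*, *Plk1*, *Aurka*, *Tpx2*, *Birc5*, *Bora*, *Cdca8*, *Incenp*, *Aurkb* in P. Between neighbours, the ranges over 3 libraries were separate only for *Aurkc* and *Aurka* in NP and for *Aurka* and *Tpx2* in both fractions. *Plk1* was above *Aurkc* in 3 of 3 NP libraries but in 1 of 3 P libraries.

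The mRNAs whose levels over the 6 libraries were most like those of *Plk1*, the highest of the 9 by its mean over all 6 libraries, were *Cldn15*, *Ccdc13* and *Rpl12* (Pearson's r of log2(FPKM + 1) = 0.987, 0.985 and 0.985, n = 6). *Cldn15* was at 78.7, 141 and 1004 FPKM in NP and at 20.1, 21.5 and 56.5 in P. *Ccdc13* was at 0.71, 1.02 and 3.76 FPKM in NP and at 0, 0 and 0.57 in P. *Rpl12* was at 3.09, 8.80 and 43.1 FPKM in NP and at 0, 0 and 1.24 in P. The likeness of *Ccdc13* and *Rpl12* thus rests in part on values at or near 0. Like *Plk1*, all 3 genes were highest in NP replicate 3, as genes picked by this correlation tend to be. Of 10577 genes, 284 correlated with *Plk1* above 0.9.

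Stored maternal mRNAs are often switched on by cytoplasmic polyadenylation, which needs a poly(A) signal and, near it, a U-rich element to which Cpeb1 binds. The last 150 bases of the 3′ UTR were therefore searched for TTTTAT and TTTTAAT on the mRNA strand. Each Aurora mRNA held TTTTAT there once, and none of the other 6 mRNAs held either motif in its window (the annotated 3′ UTR is only 146 bases in *Aurkc* and 92 in *Cdca8*). Among 8682 genes tested with a 3′ UTR of at least 150 bases, 19.3% held TTTTAT and 7.35% TTTTAAT. The sites are shown with the motif in capitals and 10 bases on each side, from *Aurka* at chr2:172356239-172356264, *Aurkb* at chr11:69051618-69051643 and *Aurkc* at chr7:7003038-7003063 (GRCm38, all in the 3′ UTR).
Aurka: aaaggctattTTTTATgttggagttc
Aurkb: aagaacaacaTTTTATaataaagtct
Aurkc: ttgttttctcTTTTATgaagtgatgt
In *Aurkb* the motif runs directly into the poly(A) signal AATAAA, in *Aurkc* ATTAAA follows downstream of it, and the *Aurka* window holds neither signal. The *Aurkc* site lies beyond the gene's end in the deposited table. *Tpx2* has 2 TTTTAT further upstream in its 3′ UTR of 1630 bases. A match is a description of the sequence. Of the 9 mRNAs, with or without the motif, 0 passed the threshold between fractions without the block, and the part of the motif in these values was not tested.

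Of 20 regulators and partners of the kinases, 19 were tested and 0 passed the threshold in either direction (limma), beside 1.82% of all genes. At an unadjusted p under 0.05 (limma) was 1 of the 19, beside 1669 of all 10578 genes. The median log2 ratio of the 19 was -0.46, against -1.03 over all genes. Of the 19, 11 were below 0 and 8 above, beside 80.1% of all genes below 0. *Fzr1*, the activator of the anaphase-promoting complex that targets Aurora A and Plk1 for destruction, was at 51.8, 36.1 and 31.4 FPKM in NP and at 6.80, 5.66 and 7.33 in P. The fractions of *Fzr1* did not overlap, and its log2 ratio was -2.40 (SE 1.05, adjusted p = 0.281, limma). It was the 1 gene of the 19 with P wholly below NP, a pattern of 23.2% of all genes. In 1 other, *Slk*, named after its values were seen, P lay wholly above NP, as in 67 of all 10578 genes, at a log2 ratio of 0.82 (SE 0.75, adjusted p = 0.554, limma). The next lowest ratios were those of *Optn*, optineurin (-1.98), and *Fbxo5*, an inhibitor of the same complex (-1.72). The highest were *Ppp1r12a*, a myosin phosphatase subunit that acts against Plk1 (1.49), *Ppp6r3*, a subunit of the phosphatase that acts on Aurora A (1.30), and *Plk2*, a paralogue of Plk1 (1.16). Those of *Ppp1r12a* and *Plk2* came from 1 or 2 P libraries, with *Plk2* at 11.8 FPKM in P replicate 3 and at 0 in the other P libraries.

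Of 22 genes that recruit the passenger complex or are its targets, 21 were tested and 0 passed the threshold (limma, 3 at an unadjusted p under 0.05), with a median log2 ratio of -0.94, 15 below 0 and 6 above. Of all 10578 genes, 1669 were at an unadjusted p under 0.05 (limma), and 80.1% had a ratio below 0. *Ppp1cc*, a catalytic subunit of the phosphatase that opposes Aurora B, was at 33.0, 45.3 and 16.0 FPKM in NP and at 0, 5.63 and 1.13 in P. Its log2 ratio was -3.63 (SE 1.22, adjusted p = 0.162, limma), and with the replicate block it passed (adjusted p = 0.0671). *Kif2c*, a microtubule-depolymerising kinesin that Aurora B phosphorylates, was at 119, 275 and 180 FPKM in NP and at 42.0, 35.3 and 40.7 in P. The fractions of *Kif2c* did not overlap, at a log2 ratio of -2.18 (SE 0.82, adjusted p = 0.203, limma), and *Ttk*, the checkpoint kinase Mps1, was at -1.997 with fractions that overlapped. At the other end were the kinetochore genes *Casc5* (0.97) and *Ndc80* (0.97) and shugoshin, *Sgol1* (0.50), each with most of its P FPKM in a single library. In this list 5 of 21 tested genes had P wholly below NP, near the 23.2% of all genes.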

How the data were processed

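FPKM per gene were made by the authors in Seqmonk. Before that, HISAT2 2.0.5 placed reads on GRCm38 after trimming by Trim Galore 0.4.1, per the submitters' notes. Annotation release, strand setting and handling of multiply matching reads: not given in the sources used here. The table also holds each fraction's mean, which was not used. For 58 symbols on several rows the row with the highest mean was kept. Members and gene lists were chosen with earlier results of these data known.

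P and NP were compared over all genes with limma 3.58.1 (R 4.3.3) on log2(FPKM + 1), two-sided, letting the prior spread follow the level. Genes entered if a fraction averaged over 1 FPKM, p-values were adjusted by Benjamini-Hochberg, and 0.1 was the threshold. The scale understates changes of low genes. Of each pathway list, genes past the threshold and the 3 highest and lowest ratios are named, and the 3 genes most like the highest member. Depth was recovered as the value that makes the commonest product of FPKM and GENCODE M21 exon length equal 1 read, and a listed 0 allows 3 reads. Read counts of *Plk1*, *Aurkc*, *Incenp* and *Bora* did not come out whole and are approximate. 3′ UTRs were read from the transcript with the longest coding sequence, or for *Incenp* the longest with a 3′ UTR. Sequences were compared with BLAST 2.17.0, and plots were made in Python 3.11.15. Fits and depth recovery were tested on simulated data.

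NP and P of each sample were pooled from one gradient, so equal replicate numbers are taken as pairs, though the sources do not spell out that numbering. Deviations from the fraction means correlated at 0.0634, 0.0991 and 0.116 for equal numbers and between -0.0886 and 0.0208 for the others. The block was an alternative, as were other pseudocounts, no filter, no trend, 2 scalings and each library left out.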

Additional observations from a re-analysis of the deposited data

How the results depend on the processing

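Over 13 alternatives the 9 log2 ratios gave 117 values, of which 103 stayed on the same side of 0 and of the threshold, 13 changed sign and 1 newly passed. *Plk1*, *Incenp* and *Bora* stayed below 0 in each alternative, and *Birc5*, *Cdca8* and *Tpx2* stayed above the median of all genes in each. *Aurka* was above it in 12 of 13, *Aurkb* in 9 and *Aurkc* in 7. Relative to that median *Plk1* was at 0.07 without NP replicate 3, its highest library, and at -0.058 with a pseudocount of 0.1. The median itself was -1.73 with a pseudocount of 0.1, -0.52 with a pseudocount of 5 and -0.59 with no filter. With the replicate block *Plk1* passed at a ratio of -1.78 (adjusted p = 0.0905 from limma, over all alternatives from 0.0905 to 0.729), and 1 gene of the passenger list, *Ppp1cc*, also passed. The block changed no other call of the 9 mRNAs or of the 2 lists.

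The sign changes under scaling were *Aurka* at 0.67 and *Aurkc* at 0.037 with median-of-ratios scaling, and *Aurka* at 0.67, *Aurkb* at 0.48 and *Aurkc* at 0.059 with quantile normalization. These moved the median of all genes from -1.03 to -0.43 and 0.0027. The medians of the regulator and passenger lists became 0.53 and 0.036, and 0.61 and 0.48, under the same scalings. With a library left out, *Aurka* ranged from -0.97 to 0.039, *Aurkb* from -1.71 to -0.12, *Aurkc* from -1.32 to -0.30, *Birc5* from -0.34 to 0.42, *Cdca8* from -0.32 to 1.52 and *Tpx2* from -0.23 to 0.65, the regulator list median from -0.99 to 0.098 and the passenger list median from -1.57 to -0.087.

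Genes past the threshold numbered 192, 2 higher and 190 lower in P. A pseudocount of 0.1 gave 69 (67 lower), no filter 0 (0 higher, 0 lower, 1759 at an unadjusted p under 0.05), no trend 15 (0 higher, 15 lower), median-of-ratios scaling 3 (1 lower), quantile normalization 4 (2 lower) and the replicate block 668 (5 higher, 663 lower). Without single libraries the count ran from 1 to 331, with 0 to 4 higher and 1 to 328 lower. It was 4, 12 and 1 without NP replicates 1, 2 and 3, and 331 without P replicate 3. The cause was not tested. A zero in P replicate 1 limits little, since 3 reads of a 2 kb transcript are worth 9.16 FPKM there.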
